A study of Mus musculus with 2 samples.

Results

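The cells described here are Hlf+ Mecom+ stem-cell-like cells of mouse bone marrow, 188 of 14068 cells kept from 2 droplet libraries of Kit+ cells. They were chosen from their own RNA counts. A member cell held at least 2 UMIs (unique molecular identifiers, each standing for 1 captured RNA molecule) of Hlf and at least 2 of Mecom, no Dntt, at most 1 Flt3, at most 4 Pf4 and at most 4 Car1, and less than 1% of its UMIs came from 6 genes of maturing neutrophils. These genes chose the cells, so their levels are not findings. The control library gave 117 members and the library labelled Utx-deleted gave 71.

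Both libraries came from CD45.2+ Kit+ marrow taken 10 weeks after transplantation. CD45.2 is an allelic form of the leukocyte protein CD45 by which transplanted cells can be told from those of a host. Kit (CD117) is the growth factor receptor of stem and progenitor cells. The library labelled Utx-deleted lacks Utx according to its title, while the control title names no alteration. The allele, the Cre driver, the strain, the number of animals and what the control cells carry are not given in the sources used here. CITE-seq was used, which reads RNA together with the DNA tags of bound antibodies cell by cell, with 13 surface tags and 2 hashtags, which mark batches of cells before pooling. What each hashtag marked is not stated, so the 4 hashtag populations, hashtag 1 and hashtag 2 in each library, show spread inside a library and are not replicates. Each group holds 1 library, so there was no replicate and no test. All differences are between these 2 libraries, and all intervals are 95% exact intervals that cover counting error only.

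Haematopoietic stem cells sit at the top of the blood lineages and keep themselves by self-renewal. Hlf and Mecom encode transcription factors that are active in stem cells and switched off as progenitors commit. Flt3, a cytokine receptor, and Dntt, a polymerase of antigen receptor rearrangement, come on along the lymphoid path. Pf4 and Car1 mark the platelet and red cell paths. UTX, encoded by Kdm6a, removes methyl groups from lysine 27 of histone H3 and is a subunit of the complexes built around MLL3 and MLL4. The study asks whether the part that MLL3 and MLL4 play in stem cell self-renewal and lineage choice needs the enzymatic activities of those complexes.

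The label was first set against genes outside the rule. Meis1, a homeobox factor of stem and early progenitor cells, was detected in 116 of 117 control members and 69 of 71 members of the other library. Its level was 774 counts per 1e+06 UMIs (CPM) in control members and 625 CPM in the others. Cells with B-lineage markers, set beside the members for comparison, held 15.4 and 49.5 CPM of Meis1, which may be free RNA or transcripts of their own. Kit RNA was present in 116 control and 71 Utx-deleted members. Marker lists of other cell types were partly present. Of 8 T and NK cell genes 4 were at 0 UMIs in control members and 6 in Utx-deleted members, Cd3e and Trbc2 of T cells among them, and the list summed to 247 and 121 CPM, nearly all of it Nkg7. Of 12 B-cell genes 6 and 8 were at 0, Cd79a and Pax5 among them, with sums of 23.7 and 17.5 CPM led by Cd79b. Of 8 monocyte and dendritic cell genes 4 and 3 were at 0, Siglech among them, with sums of 23.4 and 51.0 CPM led by F13a1. A count of 0 in 117 and 71 cells allows a share of up to 2.56% and 4.23% of such cells with a UMI, and it does not bound the share of cells that express a gene below detection.

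Genes of the most primitive, resting stem cells were rarer. Procr, which encodes the stem cell surface receptor CD201, was detected in 13 of 117 and 4 of 71 members, with 21 and 4 UMIs. Slamf1, the gene of CD150, was detected in 15 and 6 members, Vwf in 9 and 5, and the cell cycle inhibitor gene Cdkn1c in 6 and 4. These counts rest on few UMIs and do not show that the RNA was absent from the other members. Mki67, which is transcribed in dividing cells, had 1190 and 859 UMIs and was detected in 85 and 54 members (72.6% and 76.1%, and 53% and 46.5% after thinning each cell to 5000 UMIs).

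The members were also mixed. Mpo, Elane, Prtn3 and Ctsg encode the proteins of the primary granules of neutrophil precursors, and together they made up at least 0.5% of the UMIs of 25 control members (21.4%, interval 14.3 to 29.9) and 23 Utx-deleted members (32.4%, interval 21.8 to 44.5). Those cells held 82.4% and 91.9% of all granule-protein UMIs of the members. At least 6 UMIs of mast cell and basophil genes were found in 4 control and 9 Utx-deleted members, and at least 10 globin UMIs in 1 member of each library. These 3 thresholds were set after the distributions over cells were seen. The members below all of them, called core members here, numbered 88 and 40.

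Granule-rich members stood apart from core members in genes that the split did not use. Meis1 was at 1049 CPM in control core members and 182 CPM in control granule-rich members, and at 947 and 196 CPM in the other library. Angpt1, which encodes the angiopoietin ligand of the receptor Tek, was at 2808 against 746 CPM in control and 3216 against 801 CPM in Utx-deleted cells. In both libraries the core members thus carried the higher Meis1 and Angpt1 levels and the granule-rich members the lower ones. The granule-rich members also had more UMIs per cell, with medians of 34703 and 38201 against 22232 and 25092 in core members. Whether some of these barcodes held more than 1 cell was not tested. Results are given below for all members and, where the mixed members touch them, for core members.

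**Figure D1:**
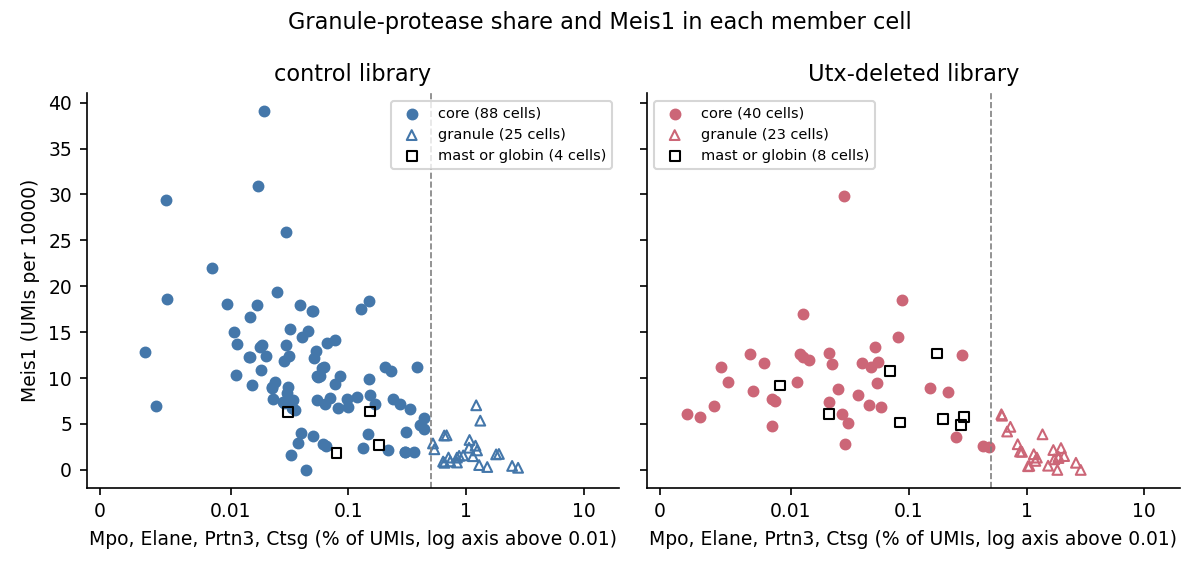
Each point is 1 member cell of the library named above its panel; the x axis gives the percent of its UMIs from Mpo, Elane, Prtn3 and Ctsg and the y axis its Meis1 UMIs per 10000. The dashed line marks 0.5%; the 25 control and 23 Utx-deleted cells to its right hold little Meis1, while the higher Meis1 levels lie to its left, where the 88 and 40 core members stand with 4 and 8 cells rich in mast cell or globin transcripts.

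The members made up 1.65% of kept control cells (117 of 7098, interval 1.37 to 1.97) and 1.02% of kept Utx-deleted cells (71 of 6970, interval 0.796 to 1.28), 1.62-fold fewer. In control cells they were 66 of 3392 cells of hashtag 1 (1.95%) and 51 of 3675 of hashtag 2 (1.39%). In Utx-deleted cells they were 28 of 3269 (0.857%) and 43 of 3676 (1.17%). Both Utx-deleted hashtag populations were below both control populations. The members were sequenced to a similar depth, with median UMIs of 25800 and 28879 per cell, and no barcode was shared between the libraries among them. The fold depended on the setting. With all cells thinned to 5000 UMIs the share was 3.54-fold lower in Utx-deleted cells (73 and 21 cells). That thinning also lowered Flt3, Dntt, Pf4 and Car1, so cells over those limits at full depth could pass. With Hlf and Mecom alone thinned and the other limits on all UMIs, the share was 2.29-fold lower (36 and 16 cells). For core members it was 2.16-fold lower (88 and 40 cells).

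The gap was wider among the cells that the rule's lineage limits left out. Without those limits, 312 control cells (4.40%, interval 3.93 to 4.90) and 95 Utx-deleted cells (1.36%, interval 1.10 to 1.66) held Hlf and Mecom and few neutrophil transcripts. Of these, 167 control cells (2.35%, interval 2.01 to 2.73) and 11 Utx-deleted cells (0.158%, interval 0.0788 to 0.282) were over the limit for Flt3 or Dntt. The hashtag populations gave 80 and 87 such cells in control and 5 and 6 in the other library. Flt3 was over its limit in 162 and 10 cells, Dntt in 51 and 1. Cells over the limit for Pf4 or Car1 numbered 30 (0.423%) and 13 (0.187%). Members made up 74.7% of these Hlf+ Mecom+ cells in the library labelled Utx-deleted and 37.5% in control. These counts use the genes of the rule and are a description.

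**Figure D2:**
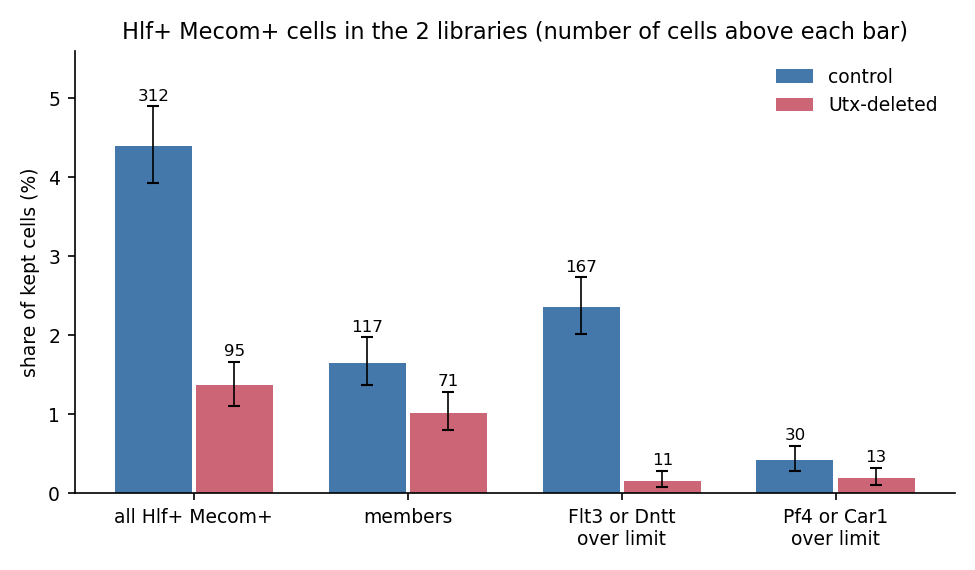
Bars give the percent of kept cells in the library named on the axis that fall in each set, for Hlf+ Mecom+ cells with few neutrophil transcripts, the members, and the cells over the Flt3 or Dntt limit and over the Pf4 or Car1 limit; whiskers are 95% exact binomial intervals and the number above each bar is its cells. The Flt3 or Dntt set shows 167 control cells against 11, and the whole Hlf+ Mecom+ set 312 against 95.

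Surface CD150 and CD48, antibody tags that the rule did not use, are the pair by which stem cells are commonly separated from other multipotent progenitors, stem cells being CD150+ CD48-. The CD48 tag on control members ran from 30 to 2736 UMIs with a median of 832, and on Utx-deleted members from 3 to 2052 with a median of 408. By hashtag the medians were 808.5 and 839 in control and 558.5 and 262 in Utx-deleted members, so both Utx-deleted populations lay below both control populations. Among core members the medians were 587 and 58. Other neutrophil-poor cells had medians of 846 and 643. CD48 made up 58.6% and 44.0% of all UMIs of the 13 tags on members, and the CD117 tag had medians of 237 and 241.

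Cells with less than 200 UMIs of the CD48 tag and at least 10 of the CD150 tag, limits set after the tag distributions were seen, were called CD150+ CD48-. They numbered 12 of 117 control members (10.3%, interval 5.41 to 17.2) and 16 of 71 Utx-deleted members (22.5%, interval 13.5 to 34.0). By hashtag they were 10 (15.2%) and 2 (3.92%) of control members and 5 (17.9%) and 11 (25.6%) of Utx-deleted members. Both Utx-deleted populations were above both control ones, with hashtag 1 of the 2 libraries close together. As a share of all kept cells the set was 0.169% (interval 0.0874 to 0.295) and 0.230% (interval 0.131 to 0.373), intervals that overlap widely. The CD150+ CD48- cells were thus a larger share of fewer members in the library labelled Utx-deleted.

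The other corner of the plot of CD150 against CD48 was thinner in the library labelled Utx-deleted. CD150+ CD48+ members numbered 30 in control (25.6%, interval 18 to 34.5) and 5 in Utx-deleted cells (7.04%, interval 2.33 to 15.7), with 17 and 13 against 3 and 2 by hashtag. As a share of all kept cells they were 0.423% and 0.0717%, with intervals of 0.285 to 0.603 and 0.0233 to 0.167. The CD150 tag was also lower on the other neutrophil-poor cells, with means of 19.4 and 5.96 UMIs and medians of 3 and 1, beside means of 29.7 and 21.9 on members. What part the tag level of the whole library had in this count was not tested. CD150- CD48+ members were the most common set in both, 66 (56.4%) and 40 (56.3%). Nearly all granule-rich members lay there, 22 of the 25 control and 23 of the 23 Utx-deleted ones. Cells low in CD48 were 21 of 117 control members (17.9%, interval 11.5 to 26.1) and 26 of 71 Utx-deleted members (36.6%, interval 25.5 to 48.9), and the hashtag populations overlapped, with 25.8% and 7.84% in control and 25% and 44.2% in the other library. Among core members, a set defined after the data were seen, they were 20 of 88 (22.7%, interval 14.5 to 32.9) in control and 25 of 40 (62.5%, interval 45.8 to 77.3) in Utx-deleted cells. The hashtag populations of core members gave 33.3% and 10% in control and 46.7% and 72% in the other library.

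**Figure D3:**
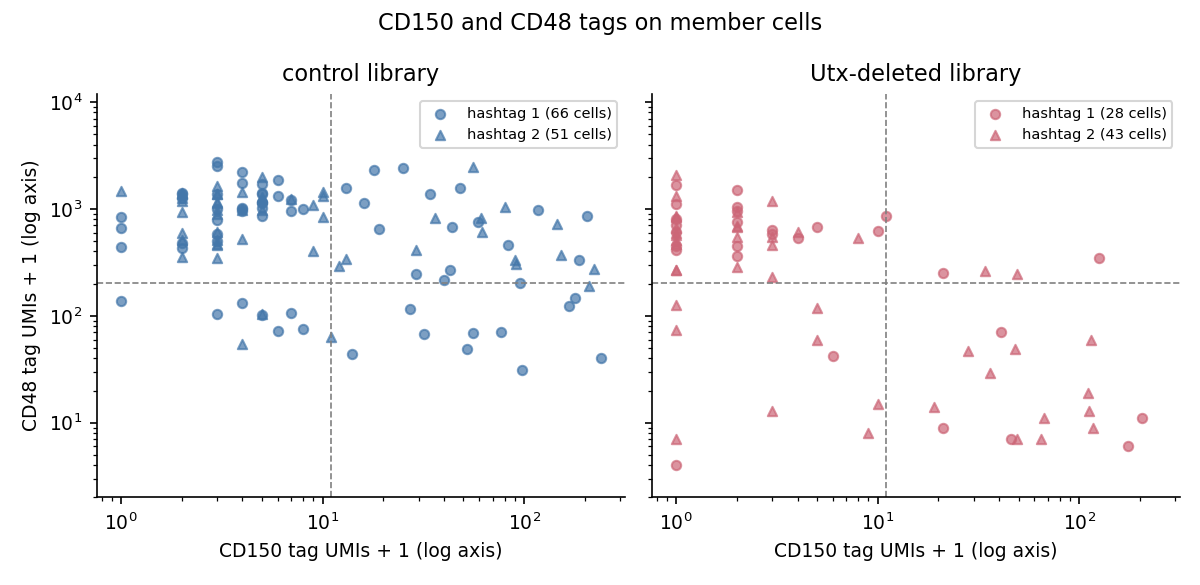
Each point is 1 member cell, with its CD150 tag UMIs plus 1 on the x axis and its CD48 tag UMIs plus 1 on the y axis, both on log scales, by library. Dashed lines mark 10 CD150 and 200 CD48 UMIs; the CD150+ CD48- corner holds 12 control and 16 Utx-deleted cells, and the CD150+ CD48+ corner 30 and 5.

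The CD150+ CD48- sets of the 2 libraries held stem cell transcripts at levels that differed in part. Meis1 was at 1393 and 843 CPM. Procr had 13 UMIs in the 12 control cells and 2 in the 16 Utx-deleted cells. Ly6a, the gene of Sca1, had 31 and 6 UMIs (141 and 12.3 CPM, log2 ratio of Utx-deleted over control -3.34, interval -5.07 to -2.23). The Sca1 tag had medians of 156 and 25.5 UMIs per cell. Mki67 was detected in 5 of 12 and 12 of 16 of these cells, at 378 and 407 CPM. The median UMIs per cell were 18554.5 and 28310.5, so the shares of cells with an Mki67 UMI are not at equal depth.

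Kdm6a, the gene named in the title of the second library (ENSMUSG00000037369, chrX:18162575-18279936 on GRCm38), had 528 UMIs in control members and 388 in Utx-deleted members. That is 174 and 183 CPM, a log2 ratio of 0.07 (interval -0.12 to 0.27). These 3′ counts cannot reveal the loss of an internal exon, so the level does not check the label. Uty, the Y-linked relative of Kdm6a, was at 0 UMIs in all members, and Xist, the RNA of the inactive X, was present in 117 of 117 and 71 of 71 members at 2251 and 2331 CPM. Of the genes of the complexes, Kmt2c (MLL3) had a log2 ratio of -0.16 and Kmt2d (MLL4) of -0.01. Of 9 genes of these complexes with at least 50 UMIs none was past 2-fold, beside 2.75% of all genes with as many, and their median log2 ratio was -0.01. The other H3 lysine 27 demethylase gene, Kdm6b, had 58 and 28 UMIs (log2 ratio -0.51).

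Across the transcriptome, UMIs were summed over members of each library, and 8970 genes with at least 50 UMIs in both sums together were compared. In Utx-deleted members 90 genes (1.0%) were higher by 2-fold or more and 157 (1.75%) lower by as much, and the median log2 ratio was 0.0057. The 4 hashtag populations give a measure of spread. Both Utx-deleted populations lay above both control populations for 1871 genes (20.9%) and below for 2007 (22.4%), and with the 2-fold limit in addition for 84 (0.936%) and 152 genes (1.69%). Inside a library, hashtag 2 differed from hashtag 1 by over 2-fold for 143 genes (1.59%) in control and 314 (3.50%) in Utx-deleted members. The count of genes past 2-fold between libraries, 247 (2.75%), was thus of the same order as the counts between hashtags inside a library, where sums are smaller. Among core members 65 of 7747 genes (0.839%) were higher and 190 (2.45%) lower. Of the 90 and 157 genes, 41 and 111 were tested in core members, and 34 and 98 were called there. In the other neutrophil-poor cells of the libraries 24 of the 90 and 77 of the 157 were also past 2-fold in the same direction. In those cells 17 and 10 had the opposite sign. The share of all tested genes past 2-fold in those cells is not given here, so nothing is read from these counts.

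**Figure D4:**
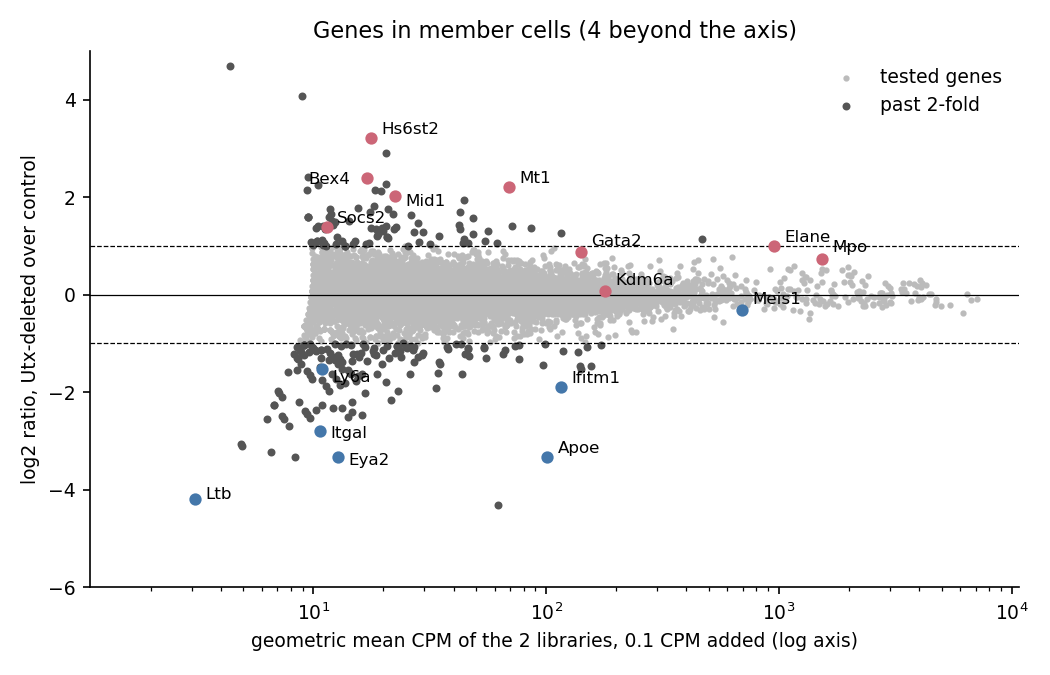
Each point is 1 of the 8970 tested genes, with its geometric mean CPM over both libraries plus 0.1 on a log x axis and its log2 ratio of Utx-deleted over control members on the y axis; dashed lines mark 2-fold and 4 genes lie beyond the axis. Apoe, Eya2, Ltb and Ifitm1 lie below the lower line and Mt1, Bex4, Mid1 and Hs6st2 above the upper one.

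Globin genes had the lowest ratios in Utx-deleted members and rested on 1 control cell, which held 3488 of 3490 Hbb-bs, 1062 of 1064 Hba-a1, 769 of 769 Hba-a2 and 828 of 847 Hbb-bt UMIs of control members, against 17, 2, 0 and 29 UMIs in Utx-deleted members. Among genes with the same sign in both hashtags and detection in at least 10% of cells, the next lowest were Ltb, Apoe, Hivep3 and Eya2. Apoe, which encodes the lipid carrier apolipoprotein E (chr7:19696109-19699188), was at 314 and 334 CPM in the control hashtag populations and 37.2 and 28.2 CPM in the Utx-deleted ones. The populations did not overlap. Over all members it was 10.1-fold lower, with 978 and 67 UMIs and a log2 ratio of -3.33 (interval -3.73 to -2.99), and it was detected in 86 of 117 and 24 of 71 cells. The ratio was -3.15 in core members and -3.51 in the other neutrophil-poor cells of the libraries. Apoe in the cells with B-lineage markers was at 2.94 and 3.19 CPM.

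Eya2, a transcriptional co-activator and phosphatase gene (chr2:165595032-165771727), was at 37.4 and 48.6 CPM in the control populations and 0 and 6.10 CPM in the Utx-deleted ones. It had 128 and 8 UMIs, in 59 and 4 cells (log2 ratio -3.32, interval -4.72 to -2.46). Those 8 Utx-deleted UMIs all lay in CD150+ CD48- cells, where control cells had 22, and the 40 CD150- CD48+ Utx-deleted members had 0 against 47 in control. In cells with B-lineage markers Eya2 was at 26.4 and 3.19 CPM (36 and 2 UMIs), so it was lower in Utx-deleted cells outside the members too. Hivep3, a zinc-finger factor gene, had 85 and 5 UMIs (-3.32), and Itgal, which encodes the alpha chain of the adhesion receptor LFA-1, 89 and 8 (-2.80). Ltb, the gene of the cytokine lymphotoxin beta, had 51 and 1 UMIs, in 29 and 1 cells, a log2 ratio of -4.18 (interval -10.49 to -2.61). Ltb differed less in the other neutrophil-poor cells (-0.90), as did Laptm4b of lysosomal membranes (47 and 3 UMIs, -3.07 in members and -0.60 in other cells). Ggt5 was outside the naming rule and was picked after its values were seen, with 35 UMIs in control and 0 in Utx-deleted members, at least 8.15-fold lower against a floor of 3 counts over the group. The remaining genes among the 12 lowest were Dok2 (66 and 4 UMIs), Eps8 (48 and 3), Kcnip3 (64 and 6), Thsd1 (58 and 6) and Il18rap (49 and 5), with log2 ratios from -3.23 to -2.54. Hbb-bt, the globin gene that met the naming rule, was at -4.30 in all members and at 0.33 in core members.

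Ifitm1, which encodes an interferon-inducible membrane protein of stem cells (chr7:140967221-140969825), was lower by a smaller factor at a higher level. It had 682 UMIs in control members and 127 in Utx-deleted members, 225 and 59.9 CPM, detected in 105 and 27 cells (log2 ratio -1.90, interval -2.19 to -1.63). A Utx-deleted cell held 47 of the 127 UMIs. Without the cell of most UMIs in each library the ratio was -2.45. In the CD150+ CD48- set it was at 678 and 55.5 CPM.

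The highest ratios fell into genes spread over many members and genes held mostly by the mixed ones. Mt1, which encodes metallothionein 1, a small zinc- and cadmium-binding protein (ENSMUSG00000031765, chr8:94179082-94180327), was at 40.9 and 20.04 CPM in the control populations and 157 and 143 CPM in the Utx-deleted ones. The populations did not overlap. It had 97 and 314 UMIs, 4.60-fold more in Utx-deleted members (log2 ratio 2.20, interval 1.88 to 2.56). It was detected in 36 of 117 (30.8%) and 62 of 71 members (87.3%), and after thinning each cell to 5000 UMIs in 12% and 36.6%. Cells with B-lineage markers held 5.14 and 35.1 CPM, which may be free RNA or transcripts of their own. The other neutrophil-poor cells had a log2 ratio of 1.29. In core members Mt1 was at 9.84 and 145 CPM (3.82), and in CD150+ CD48- cells it had 1 UMI in 1 of 12 control cells and 92 UMIs in 14 of 16 Utx-deleted cells (4.39, interval 2.86 to 10.70). Mt2, its neighbour (chr8:94172664-94173568), had 0 UMIs in control members and 24 in 11 Utx-deleted members, at least 11.5-fold higher against a floor of 3 counts over the group.

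Metallothionein genes are switched on by the zinc-sensing factor MTF1 through metal response elements, short sites read here as TGCACNC or TGCGCNC on either strand. The 250 bases before RefSeq's annotated starts of both genes are shown because Mt1 and Mt2 are neighbours that were both higher; they are given 5′ to 3′ on the plus strand of GRCm38.p6 with the matches in capitals.
Mt1, chr8:94178839-94179088: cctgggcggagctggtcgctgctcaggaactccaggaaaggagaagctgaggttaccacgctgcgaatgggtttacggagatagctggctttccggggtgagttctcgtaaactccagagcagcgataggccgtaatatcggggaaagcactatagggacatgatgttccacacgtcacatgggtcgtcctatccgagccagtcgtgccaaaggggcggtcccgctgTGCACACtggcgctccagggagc
Mt2, chr8:94172368-94172617: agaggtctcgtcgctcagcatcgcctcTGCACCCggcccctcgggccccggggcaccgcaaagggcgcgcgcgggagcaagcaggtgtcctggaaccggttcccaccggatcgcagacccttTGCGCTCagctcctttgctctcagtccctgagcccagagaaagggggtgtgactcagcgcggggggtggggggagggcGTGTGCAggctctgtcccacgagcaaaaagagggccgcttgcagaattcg
The Mt1 window holds 1 match and the Mt2 window 3, the last on the minus strand. The RefSeq starts used here are not the GENCODE starts given above. The Mt1 window runs past the GENCODE start of its gene, and the Mt2 window ends before that of Mt2. Bases outside the windows were not searched, so the counts do not cover the whole promoters. Of 32851 promoter windows of this length, 21.4% hold at least 1 match, 5.17% at least 2 and 1.26% at least 3. A match is a description of the letters and shows no binding.

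Bex4, a small X-linked gene of the brain-expressed family (chrX:136138996-136140443), was at 6.91 and 7.71 CPM in the control populations and 39.7 and 38.9 CPM in the Utx-deleted ones. It had 22 and 83 UMIs in 15 and 29 cells (log2 ratio 2.39, interval 1.74 to 3.18), with 3.04 in core members and 0.52 in other neutrophil-poor cells. In CD150+ CD48- cells it was detected in 2 of 12 control and 16 of 16 Utx-deleted cells, with 3 and 58 UMIs (2.74, interval 1.51 to 5.45). Mid1, which encodes a microtubule-bound ubiquitin ligase (chrX:169685199-170005736), was at 10.9 and 10.8 CPM in the control populations and 37.2 and 50.3 CPM in the Utx-deleted ones, in 24 and 50 cells (2.03, interval 1.47 to 2.68). Among CD150+ CD48- cells Mid1 had 0 and 24 UMIs, the latter in 15 of 16 cells. Cells with B-lineage markers held 15.4 and 44.7 CPM of Mid1, close to the member levels. Those cells may also transcribe Mid1 themselves, so their level does not measure free RNA alone. What part free RNA had in the Mid1 difference was not tested.

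Kif21a, a kinesin motor gene, was also spread over many cells, with 13 and 42 UMIs in 8 and 26 cells (2.14). Hs6st2, a heparan sulfate sulfotransferase gene on the X chromosome (chrX:51387212-51681856), had 17 and 115 UMIs in 10 and 14 cells (3.21, interval 2.53 to 4.10, and 1.54 in core members). Gm15581 (28 and 96 UMIs, 2.26) and Sgms2, a sphingomyelin synthase gene (28 and 87 UMIs, 2.12), were also among the 12 highest. Aff2 had 26 and 82 UMIs in 7 and 13 cells (2.14). Of the 12, Bex4, Mid1, Hs6st2 and Aff2 lie on the X chromosome. Of all 90 higher genes 7 did (7.78%), against 3.22% of tested genes and 3.18% of the lower genes, a count made after the names were seen. The tested X-linked genes had a median log2 ratio of 0.05.

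Scin, Ncam1, Ms4a2 and Chst13 were held mostly by the mixed members. Scin, an actin-severing protein gene, had 6 and 81 UMIs, the latter in 8 cells (4.07), and in core members 3 and 1 UMIs, too few for a ratio. Ncam1, an adhesion molecule gene, had 22 and 120 UMIs (2.91), and 6 and 1 in core members (-0.89). Ms4a2, the beta chain gene of the IgE receptor of mast cells and basophils, had 68 and 185 UMIs (1.95), and 4 and 0 in core members (-1.41). Cma1, a mast cell protease gene, had 0 and 59 UMIs, in 2 Utx-deleted cells. Chst13, a chondroitin sulfotransferase gene, had 12 and 47 UMIs in 5 and 22 cells (2.40), of which 0 and 2 UMIs lay in core members. Ms4a2 and Cma1 are among the genes that defined the split, so their loss there is set by it. Mt1, Bex4, Mid1 and Kif21a stayed past 2-fold in core members (3.82, 3.04, 2.25 and 2.15).

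**Figure D5:**
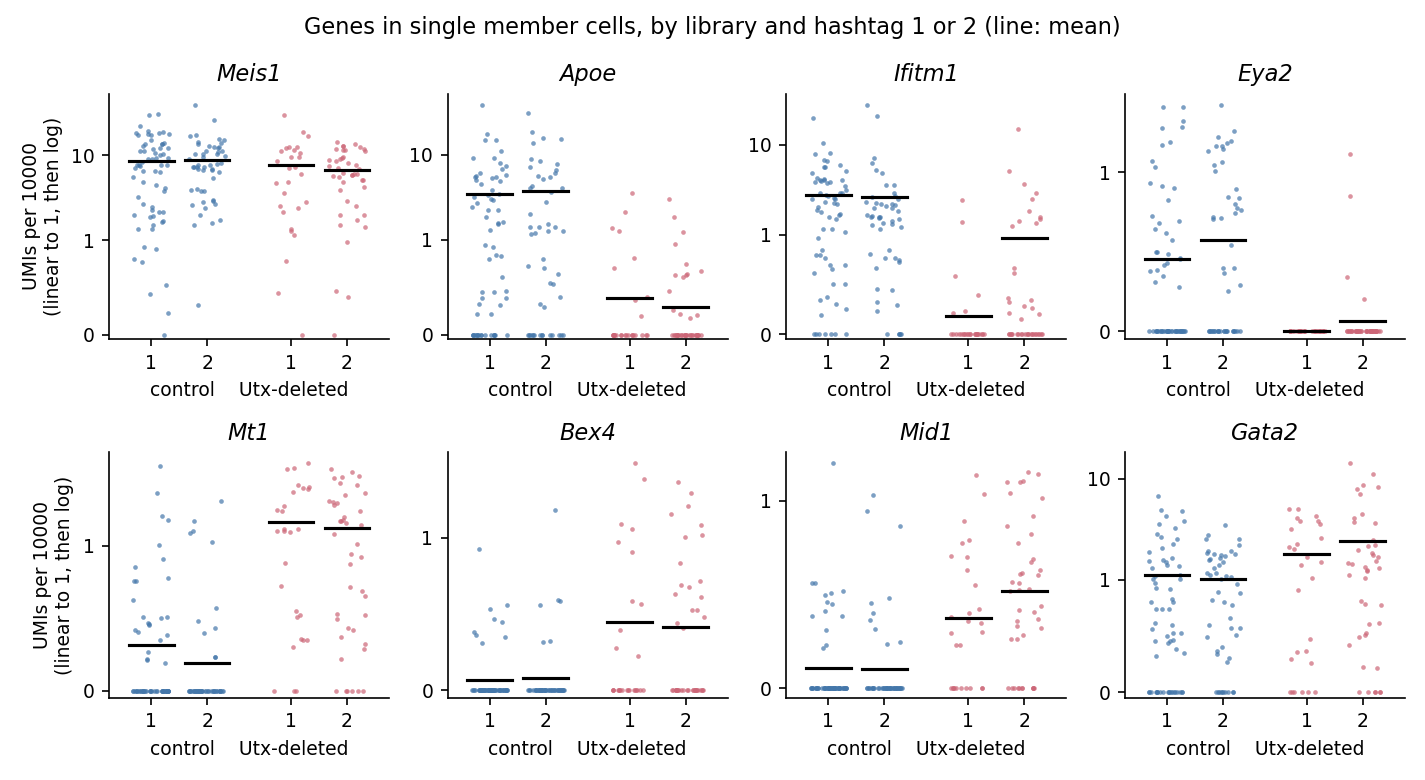
Each point is 1 member cell, grouped by library and hashtag, with the UMIs per 10000 of Meis1, Apoe, Ifitm1, Eya2, Mt1, Bex4, Mid1 and Gata2 on the y axis of its panel; horizontal lines are means. Apoe, Ifitm1 and Eya2 are lower, and Mt1, Bex4 and Mid1 higher, in both Utx-deleted hashtag populations than in both control ones.

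The stem cell transcription factors were close to unity as a group. Of 19 tested genes none was past 2-fold, with a median log2 ratio of -0.07 (0.07 in core members), beside 1.0% higher and 1.75% lower of all genes tested. Prdm16 (0.12), Hoxa9 (-0.11), Lmo2 (0.01), Tal1 (-0.11) and Fli1 (0.07) were all within a small range, and Erg was at 0.27. Gata2, a zinc-finger factor of stem cells and mast cell precursors, was the widest to the higher side, with 316 and 403 UMIs, 104 and 190 CPM and a log2 ratio of 0.87 (interval 0.65 to 1.09, and 0.95 in core members). By tag set its ratio was -0.15 in CD150+ CD48- cells (187 and 171 CPM), 2.58 in CD150- CD48- cells (4 and 39 UMIs), 1.34 in CD150+ CD48+ cells (168 and 423 CPM) and 1.25 in CD150- CD48+ cells (74.7 and 179 CPM). Lyl1, a helix-loop-helix factor related to Tal1, had 193 and 80 UMIs (-0.74).

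Among 24 tested surface and signalling genes of stem cells, 2 were past 2-fold higher and 2 lower, beside 1.0% higher and 1.75% lower of all genes tested, with a median of -0.19. Angpt1, the ligand gene, had 6635 and 4624 UMIs, or 2186 and 2182 CPM. Of the receptors, Kit was at 0.12 and Cd34 at -0.27. Ly6a (57 and 13 UMIs, -1.53) was lower, and Itga2b, the gene of the integrin CD41, had 145 and 63 UMIs (-0.67). Gda, a guanine deaminase gene, had 85 and 178 UMIs (1.58). Socs2, an inhibitor of cytokine signalling, had 21 and 39 UMIs (1.38), but it was at -0.09 in hashtag 1 alone. Cd48 RNA was at 205 and 105 CPM (-0.96, -1.44 in core members and -0.34 after thinning), in the same direction as the CD48 tag.

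No tested gene of the cycling lists was past 2-fold, beside 2.75% of all genes tested. All 19 tested G1/S genes had log2 ratios at or below 0, where 49.3% of all tested genes were below 0, with a median of -0.25. Tyms (-0.76), Mcm5 (-0.59), Slbp (-0.58) and Pcna (-0.55), of nucleotide synthesis, replication licensing, histone messages and the replication clamp, were among them. Their list as a sum was at 2780 and 2212 CPM in the control populations and 2274 and 1873 CPM in the Utx-deleted ones, which overlap. Of 20 G2/M genes 17 were above 0, with a median of 0.40, led by Plk1 (0.80), Cenpe (0.74) and Ccnb1 (0.68). Their sum was at 2556 and 3539 CPM in control and 3245 and 3727 CPM in Utx-deleted members, which overlap as well. After thinning, a G2/M UMI was found in 88.0% of control and 81.7% of Utx-deleted members, with a median of 9 UMIs in both, and the G1/S medians were 12 and 8. Mki67 (0.05) and Top2a (-0.02) hardly differed. Since the hashtag populations overlapped, neither sum exceeded the spread inside a library. By gene, both Utx-deleted populations lay above both control ones for 10 of 20 G2/M genes and below for none. For G1/S genes they lay below for 7 of 19 and above for none. The shares of all genes tested were 20.9% above and 22.4% below. In core members 1 of 20 G2/M genes was past 2-fold higher, beside 0.839% of genes tested there.

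Of 11 tested lymphoid priming genes 5 were past 2-fold lower and none higher, beside 1.75% lower and 1.0% higher of all genes tested. Their median was -0.13, and it changed sign in 1 of 11 alternatives (0.19). The summed level of the list was 2458 CPM in control and 2679 CPM in Utx-deleted members. In core members 5 of 9 were past 2-fold lower and none higher, beside 2.45% and 0.839% of genes tested there, with a median of -1.06. Notch1, a receptor of T-lineage commitment, had 45 and 11 UMIs (-1.42), Bach2, a factor of lymphoid progenitors, 209 and 62 (-1.22), Cd52 171 and 45 (-1.38) and Lsp1 87 and 17 (-1.77). Flt3 and Dntt, which define this path, were limited by the rule, so the list describes what remained below those limits. Satb1 (-0.02) and Plac8 (0.27) were near or above 0 in all members and at -1.22 and -0.89 in core members.

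The myeloid genes stood beside a larger share of granule-rich members in the library labelled Utx-deleted. Of 17 tested genes 1 was past 2-fold higher and 2 lower, beside 1.0% and 1.75% of all genes tested, with a median of 0.10 in all members and -0.25 in core members. Mpo had 3601 and 4194 UMIs (0.74, -0.31 in core members), and Elane 2051 and 2871 (676 and 1355 CPM), though the core value of these genes is set by the split. Csf3r, the receptor gene for the neutrophil growth factor G-CSF, had 303 and 90 UMIs (-1.22), and the ratio was -2.03 in core members. Nkg7 had 748 and 256 UMIs (-1.02), with -0.50 in hashtag 1 alone. The factors Cebpa (0.10) and Spi1 (0.03) were close to 0.

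Of 13 tested megakaryocyte and erythroid genes 4 were past 2-fold lower and none higher, beside 1.75% and 1.0% of all genes tested. Their median was -0.40 (-0.01 in core members). In core members 3 of 13 were past 2-fold lower and none higher, beside 2.45% and 0.839% of genes tested there. Gata1, the factor of these lineages, had 71 and 24 UMIs (-1.01), F2r, a thrombin receptor gene, 133 and 35 (-1.38) and the urea transporter gene Slc14a1 120 and 39 (-1.08). Klf1, an erythroid factor, had 11 and 0 UMIs, and Gfi1b was at 0.32. Slc14a1 was at 0.28 when cells were thinned. Gata1 was at -0.20 with a minimum of 3 UMIs of Hlf and Mecom, and it was not past 2-fold in 6 of 13 alternatives. Of 4 tested mast cell and basophil genes 3 were past 2-fold higher, beside 1.0% of all genes tested, with a median of 1.81, and the median was -0.33 in core members, where 1 gene was tested.

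Of 9 tested interferon-stimulated genes 2 were past 2-fold lower, beside 1.75% of all genes tested, and 1 was above 0, where 49.3% of all tested genes were below 0. Their median was -0.46 (-0.31 in core members). Iigp1, an interferon-inducible GTPase gene, had 53 and 11 UMIs (-1.65), Oasl2 72 and 21 (-1.21) and Bst2, the gene of tetherin, 372 and 178 (-0.54). Stat2, a signal transducer of the interferon response, was at -0.86. Oasl2 was at -0.56 in hashtag 1 alone and -1.73 in hashtag 2 alone. The immediate early genes had a median of -0.41 with 1 of 8 past 2-fold lower, Jun (74 and 22 UMIs, -1.19), while Junb was at 0.34. Jun was at -0.24 in hashtag 1 alone and -1.98 in hashtag 2 alone. The 10 Polycomb repressive complex 2 genes, whose mark UTX removes, had a median of -0.04 with none past 2-fold, Ezh2 at -0.14 and Suz12 at -0.22.

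The Sca1 tag had medians of 16 and 9 UMIs on members, beside 8 and 4 on other neutrophil-poor cells, and the CD34 tag medians of 37 and 58, beside 18 and 26. By hashtag CD34 was at 35 and 40 in control and 59 and 58 in Utx-deleted members, while Cd34 RNA was at -0.27. The CD41 and CD150 tags had lower medians and, among core members, higher ones in the library labelled Utx-deleted. CD41 had medians of 24 and 19 and means of 29.3 and 42.9 on all members, and medians of 19 and 30.5 on core members. CD150 had medians of 4 and 2 on all members and 6.5 and 9.5 on core members. CD16/32, the Fc receptors of committed myeloid progenitors, was at 59 and 42 on core members and 258 and 169 on granule-rich members. Gr1 was at 24 and 21, against 928.5 and 1365 on neutrophil-rich cells. CD11b, an integrin chain of myeloid cells, was at 11 and 4 on members (10 and 12 in control and 5 and 4 in Utx-deleted hashtag populations), beside 10 and 6 on other neutrophil-poor cells, and B220 of B cells was at 18 and 17. The CD201, CD135 and CD127 tags had medians of 4 or less in both libraries and were not read further.

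Against the other neutrophil-poor cells, the 12 genes with the highest ratios among those that met the minimum in both libraries were Lhcgr (log2 ratio of members over other cells 3.67 in control and 4.32 in Utx-deleted), B3galt1, Cyp7b1, Nbea, Klf12, Crispld1, Emcn, Gm16140, Plxdc2, Zfp532, Synpo2 and Samd12. Emcn encodes the sialomucin endomucin, present on stem cells and endothelium, and was at 2.27 and 3.48. Meis1 was at 1.46 and 2.13 and Angpt1 at 1.42 and 2.14. Between libraries the 12 genes lay from -0.68 (Emcn) to 0.73 (Synpo2), and the choice of genes high in both libraries bears on that range. The range was wider by hashtag, with Plxdc2 at -0.93 in hashtag 1 alone and 1.33 in hashtag 2 alone. Lhcgr, B3galt1, Nbea, Klf12, Emcn, Plxdc2 and Zfp532 changed sign in at least 1 alternative, and the other marker genes in none. Since the cells were chosen from their RNA, these ratios describe the members and are not a test.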

How the data were processed

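Raw UMI counts were deposited for 32285 genes and 15 antibody tags per cell barcode, 1 control and 1 Utx-deleted library, written with Cell Ranger 7.1.0 per the file headers, against mm10 per the submitters' processing notes. The libraries were made with 10x Genomics 3′ ver3.1 chemistry per the labels' protocols. The annotation release and the rule for calling cells are not given in the sources used here. Counts at the 3′ end do not resolve internal exons.

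Barcodes with at least 500 genes and under 10% mitochondrial UMIs were kept, which left out 349 control and 214 Utx-deleted barcodes. A further 380 and 699 with at least 100 UMIs of both hashtags within 5-fold of each other were dropped as doublets. Doublets within a hashtag remain. UMIs of members were summed per library (3034667 and 2118831) and scaled to 1e+06 (CPM), and log2 ratios had 1 UMI added to each sum. Genes with at least 50 UMIs were compared and called at 2-fold. Intervals are exact Poisson, conditional binomial or Clopper-Pearson. Thinning used 5000 UMIs per cell. Python 3.11.15, scipy 1.17.1 and edgeR 4.0.16 (TMM scaling) were used, and the scripts were tested on simulated counts. No count test was possible with 1 library a group.

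The members and the 24 gene lists were chosen with earlier results of these data known. Genes named beyond the lists were the 12 highest and 12 lowest ratios past 2-fold with the same sign in both hashtags and detection in at least 10% of cells. Alternatives covered the rule's minimums and limits, cell filters, scaling, thinning, hashtags alone and, added after seeing the data, core members. Gene coordinates come from the GENCODE M21 annotation of GRCm38, which holds 32158 of the gene IDs and may not be the authors' annotation. Some genes of the lists are not reported here.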

Additional observations from a re-analysis of the deposited data

Results flagged for a closer look

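Of 8970 tested genes, 8 with more than 3 UMIs in each hashtag in at least 1 library were past 2-fold in opposite directions in the 2 hashtags, when each hashtag of the library labelled Utx-deleted was set against the same hashtag of control. The difference was not tested, and it is given as the log2 ratio of hashtag 2 minus that of hashtag 1. Papss2 was at 4.62, with 24 of its 44 Utx-deleted UMIs in 1 cell. Ly6c2, a surface antigen gene of monocytes and their precursors, was at 2.68. It was at 73.1 and 27.7 CPM in the control populations and 29.7 and 76.2 CPM in the Utx-deleted ones. A control cell held 69 of the 163 Ly6c2 UMIs of control members, and a Utx-deleted cell held 45 of 124. The others were Frmd4b (3.10), Plekhg3 (2.88), Gm12353 (2.27), Tgif2 (2.13), Hist1h2bm (-2.78) and Gm16341 (-2.98).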

How the results depend on the processing

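The members were fewer in the library labelled Utx-deleted under every alternative run. The difference in their share was -0.630 percentage points, and it was -1.51 with a minimum of 1 UMI of Hlf and Mecom, -3.03 without the limits on Flt3, Dntt, Pf4 and Car1 and -2.29 as a share of neutrophil-poor cells. Thinned to 5000 UMIs, 73 and 21 cells met the rule, a 3.54-fold lower share in Utx-deleted cells, against 1.62-fold without thinning. In that setting cells over the limits on Flt3, Dntt, Pf4 and Car1 at full depth could pass. When thinning was applied to Hlf and Mecom only, 36 and 16 cells met the rule, a 2.29-fold lower share. The 90 higher and 157 lower genes became 25 and 49 after thinning, 236 and 334 at a minimum of 20 UMIs, 44 and 76 at 100, and 420 and 457 at 1.5-fold. With 50 UMIs required within the hashtag, hashtag 1 alone gave 57 higher and 134 lower genes and hashtag 2 alone 100 and 99, so the excess of lower genes was not seen in hashtag 2. Among results past 2-fold in all members, the direction in core members reversed for the median of mast cell and basophil genes (-0.33), Ncam1 (-0.89), Ms4a2 (-1.41), Mcpt8 (-0.46), F13a1 (-0.89), Il1rl1 (-0.67) and Hbb-bt (0.33), where the construction removes the cells that hold them. Medians nearer 0 changed sign there too, from 0.10 to -0.25 for the myeloid list and from -0.07 to 0.07 for the stem cell factors. Mpo (0.74 to -0.31) and Plac8 (0.27 to -0.89) did so as well. Over all 11 alternatives the median changed sign in 3 for the stem cell factors. It did so in 2 for the myeloid list and in 2 for the UTX, MLL3 and MLL4 complex genes. For the lymphoid list (0.19) and the Polycomb repressive complex 2 genes (0.02) it did so in 1. The direction reversed in hashtag 1 alone for Socs2 (-0.087) and after thinning for Slc14a1 (0.28). With a minimum of 1 it reversed for Elane (-0.089) and with 3 for Gzmb (-0.12). The cause of these reversals was not tested. No ratio was taken where both libraries held 3 UMIs or fewer, as for Scin, Chst13, Hba-a1, Hba-a2, Hbb-bs and Gzmb in core members. The CD150+ CD48- share of members stayed higher in the library labelled Utx-deleted under the other tag limits run, by 11.4 to 15.7 percentage points. With the same limits, it was higher by 23.9 percentage points among core members. No paired analysis was possible because each group holds 1 library.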

Other observations

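Several genes outside the groups described above also differed in members. Of 4 tested MHC class II genes, of antigen presentation, 1 was past 2-fold higher, beside 1.0% of all genes tested, with a median log2 ratio of Utx-deleted over control of 0.24 that was at -0.080 when cells were thinned. That gene, H2-Aa, had 21 and 38 UMIs (1.34), while H2-Ab1 had 79 and 69 (0.33) and H2-DMa 271 and 185 (-0.03). Below the minimum for a call, Cd74 had 8 and 25 UMIs, H2-Eb1 6 and 24 and H2-Oa 27 and 8. Of the Bex and Tceal family, Bex1 had 34 and 82 UMIs (1.76), in the direction of Bex4, while Bex6 had 137 and 41 (-1.20) and Bex3 was at -0.24. Bex6 was at -0.29 in hashtag 1 alone and -2.10 in hashtag 2 alone. Slc16a11 had 3 and 41 UMIs and Ptn, a heparin-binding growth factor gene, 10 and 32. The transcript 3830403N18Rik had 37 UMIs in control members, 36 of them in hashtag 2, and 0 in Utx-deleted members, at least 8.61-fold lower against a floor of 3 counts over the group. Ggt5, Slc16a11, Ptn, Cd74 and 3830403N18Rik were chosen after their values were seen or fell under the minimum for a call.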
